A study of Mus musculus with 4 samples.

Results

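The 40 genes described here encode the machinery of autophagy and its cargo receptors. They were measured in mouse RAW264 cells given or not given iron after transfection with siRNA against the transcription factors Tfe3 and Tfeb or GFP. They were chosen by gene name, not by a threshold on their values, though with earlier results of these data known, and all 40 were found among the 24841 named genes of the arrays. Of these, 5 are receptors (Sqstm1, Nbr1, Optn, Calcoco1 and Tax1bp1) and 35 form the core machinery. Probes well above background on all 4 arrays represented 39 members. The exception was the receptor Optn, whose 2 probes were not well above background on any array and which therefore gave no value.

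Autophagy encloses part of the cytoplasm in a double membrane, the autophagosome, which then fuses with the lysosome. The Ulk1 kinase complex and a class III phosphatidylinositol 3-kinase start the membrane, lipid carriers and PI3P-binding proteins let it grow, and 2 ubiquitin-like conjugation systems attach proteins of the Atg8 family (LC3 and GABARAP) to it. Cargo receptors bind cargo, for many of them ubiquitinated material, on 1 side and Atg8 proteins on the other. In macrophages the pathway degrades microbes, damaged organelles and the iron store ferritin, and Tfe3 and Tfeb are known activators of genes of lysosomes and autophagy.

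RAW264 is an established macrophage-like line from a BALB/c mouse. The 4 groups were cells with siRNA against Tfe3/Tfeb and iron, cells with siRNA against Tfe3/Tfeb and no iron, cells with siRNA against GFP (siGFP, the control, since mouse cells carry no GFP gene) and iron, and siGFP cells without iron. Iron was 500 µM ferric chloride for 24 hours, added 48 hours after transfection, so that all cells had been transfected with an siRNA. Each group had 1 array, so a value below sets 1 array against another, and no test between groups was made and no p-value is given.

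Levels are log2 of the processed signal relative to the 75th percentile of the array, which lay between 593 and 636 on the 4 arrays, and no spot was saturated. Probes spotted many times on an array gave the only error, the spot SD of a log2 difference. It was 0.0634 for bright genes (level above 3) and about 0.1 at middle levels. For genes with a level between -3 and -1 it was 0.474, and below -3 it was 0.293. This error covers spotting and scanning, not cultures. Below a level of 3 each estimate rests on few combinations of probe and array: 14 from 1 to 3, 17 from -1 to 1, 22 from -3 to -1 and 38 below -3. Tfe3 had processed signals of 7315 with iron and 7736 without iron in siTfe3/Tfeb cells, and 11306 with iron and 12421 without iron in siGFP cells. Tfe3 was thus lower on both siTfe3/Tfeb arrays. Tfeb, by its brightest probe, was not clearly so, with log2 differences (siTfe3/Tfeb minus siGFP) of 0.16 with iron and -0.14 without iron, and its 3 other probes, dimmer, had between -0.18 and 0.08. The difference of siTfe3/Tfeb minus siGFP, below called the siTfe3/Tfeb difference, is therefore one between the siRNAs given, of which only Tfe3 was seen lower. Of their relatives, Mitf had -0.05 with iron and -0.09 without iron, and Tfec had 0.04 and -0.65. Tfec was dim, with a mean level of -3.82 and a spot SD of 0.293, on 1 measured probe. All 8 macrophage markers were well above background on all 4 arrays, with summed scaled signals from 842 to 960. Of the markers of other cell types, 1 of 5 for fibroblasts (Col1a2), 0 of 4 for epithelium, 1 of 3 for endothelium (Pecam1) and, of 3 lymphocyte markers, Cd3e were. Their summed scaled signals were 0.113 to 0.207, 0.0314 to 0.0621, 0.124 to 0.184 and 1.32 to 1.59 in that order, so that of the lymphocyte markers was the highest of these. The part of other cell types in the results was not tested. Not well above background on any array were 4 of 5 fibroblast markers (Col1a1 among them) and 4 of 4 epithelial ones (Epcam among them). The same held for 1 of 3 endothelial markers (Cdh5) and 0 of the 3 lymphocyte markers.

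Of the receptors, Sqstm1 (p62), the receptor that links ubiquitinated cargo to LC3 and also binds Keap1, was the one with a large iron difference. Its level was 5.86 in siTfe3/Tfeb cells with iron and 4.78 in siTfe3/Tfeb cells without iron, and 5.67 in siGFP cells with iron and 4.55 in siGFP cells without iron. Both iron arrays were thus above both untreated arrays, whichever siRNA the cells had received. The iron difference was 2.10-fold in siTfe3/Tfeb cells and 2.18-fold in siGFP cells, and the spot SD of such a log2 difference was 0.0634. The 2 responses differed by -0.05 on the log2 scale, which is within the spot SD of a difference of responses, 0.0897. RNA of whole cultures was measured, so a share of cells with more of a transcript and more of it per cell cannot be told apart, for this and every other gene. The brightest Sqstm1 probe lies at chr11:50013670-50013729 (mm9, minus strand). Of 2 further probes, the one at chr11:50015985-50016044 gave iron differences of 1.07 in siTfe3/Tfeb cells and 0.90 in siGFP cells, and the dim one at chr11:50012868-50012927 gave 0.39 and 0.55. All 3 probes were higher with iron in both siRNA groups, but the dim one by less.

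The other receptors did not share this difference. Nbr1, an Sqstm1 relative that also binds ubiquitin and LC3, had levels of -0.998 in siTfe3/Tfeb cells with iron, -0.95 in siTfe3/Tfeb cells, -1.28 in siGFP cells with iron and -1.16 in siGFP cells. Its iron differences, -0.04 and -0.11 in siTfe3/Tfeb and siGFP cells, lay well within the spot SD at that level, 0.474. Calcoco1, a receptor for autophagy of the endoplasmic reticulum and Golgi, had levels of -3.11 in siTfe3/Tfeb cells with iron, -2.49 in siTfe3/Tfeb cells, -3.35 in siGFP cells with iron and -2.87 in siGFP cells. Both iron arrays were below the untreated array of the same siRNA, by 1.54-fold for siTfe3/Tfeb and by 1.40-fold for siGFP. This is close to the spot SD of 0.474 at its mean level of -2.96. Below -3, where both iron levels lay, the spot SD was 0.293. A second Calcoco1 probe of much the same brightness gave smaller iron differences, -0.24 and -0.37. It also gave siTfe3/Tfeb differences of 1.23 with iron and 1.09 without iron, against 0.24 and 0.38 for the first probe, so the 2 probes disagree on the size of the siTfe3/Tfeb difference.

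Tax1bp1, a receptor for ubiquitinated protein aggregates and, through Ncoa4, for ferritin, had levels of 2.62 in siTfe3/Tfeb cells with iron, 2.58 in siTfe3/Tfeb cells, 2.25 in siGFP cells with iron and 1.91 in siGFP cells. The siTfe3/Tfeb arrays were both above the siGFP arrays. The siTfe3/Tfeb difference was 1.29-fold with iron and 1.59-fold without iron. The other 2 measured probes gave 0.41 and 0.47 on the log2 scale with iron, and 0.37 and 0.47 without iron. The iron difference of 0.34 in siGFP cells was not seen by the other probes, at -0.02 and -0.09, so for this gene the iron value depends on the probe and the siTfe3/Tfeb direction does not. Over the 4 measured receptors the median iron difference was -0.004 in siTfe3/Tfeb cells and 0.11 in siGFP cells. Without Sqstm1 it was -0.04 and -0.11. The core machinery had medians of -0.10 and -0.04, and all genes -0.01 and -0.02.

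**Figure D1:**
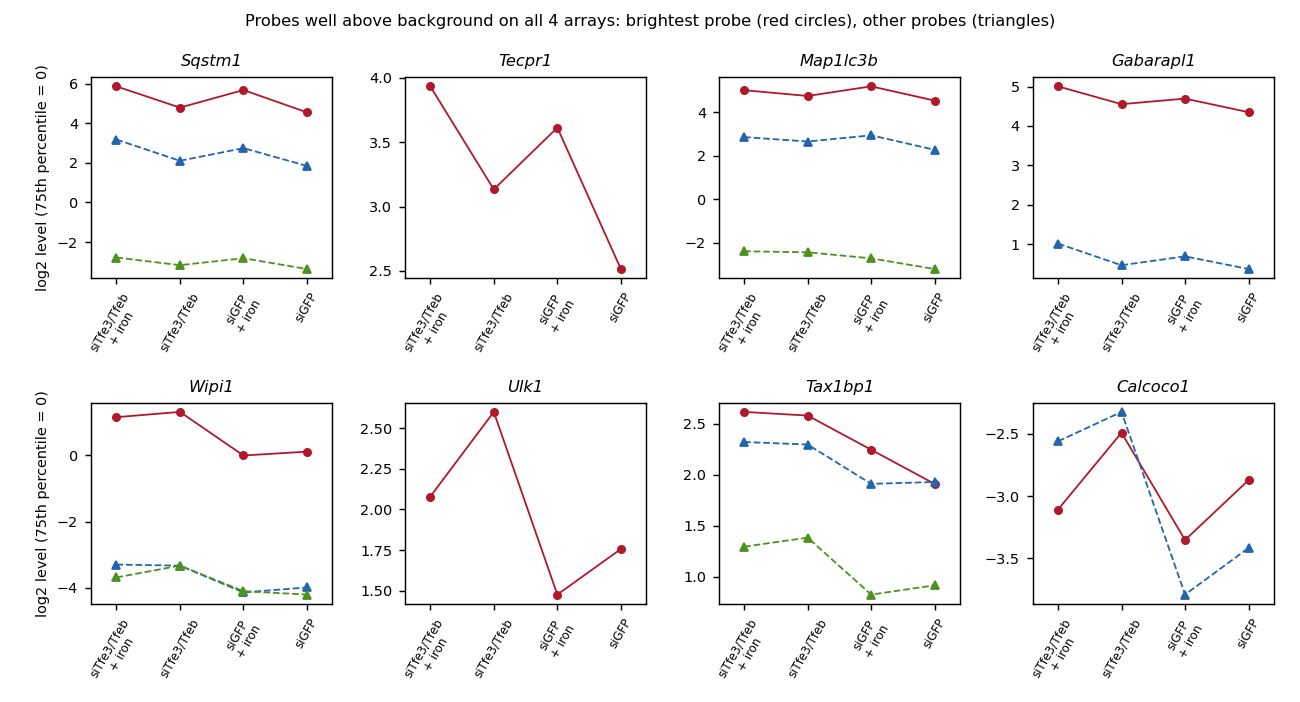
Log2 level (y axis, 75th percentile of the array = 0, each panel with its own scale) of every probe well above background on all 4 arrays, for 8 members, on the arrays of siTfe3/Tfeb cells with iron, siTfe3/Tfeb cells, siGFP cells with iron and siGFP cells. Each point is 1 array, lines join values of 1 probe, red circles are the brightest probe and triangles the others. By their brightest probes, Sqstm1, Tecpr1 and Map1lc3b are highest on the 2 iron arrays, and Wipi1, Ulk1 and Tax1bp1 are higher on both siTfe3/Tfeb arrays.

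Since all Sqstm1 and Map1lc3b probes had the same sign of iron difference, and all Wipi1 probes the same sign of siTfe3/Tfeb difference, the deposited sequence of 1 further 60-base probe of each is shown, 5′ to 3′ in the sense of the transcript. They lie at chr11:50015985-50016044 (minus strand), chr8:124119924-124119983 (plus strand) and chr11:109443686-109443745 (minus strand) of mm9.
Sqstm1: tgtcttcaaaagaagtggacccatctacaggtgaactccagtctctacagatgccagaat
Map1lc3b: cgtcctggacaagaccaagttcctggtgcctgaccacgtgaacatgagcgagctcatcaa
Wipi1: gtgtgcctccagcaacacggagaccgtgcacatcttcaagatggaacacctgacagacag

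Of the 5 Atg8 family genes, 4 were higher with iron in both siRNA groups by their brightest probes. Map1lc3b (LC3B), the Atg8 protein most used as a marker of autophagosomes, had levels of 5.01 in siTfe3/Tfeb cells with iron, 4.75 in siTfe3/Tfeb cells, 5.19 in siGFP cells with iron and 4.53 in siGFP cells. It was 1.202-fold higher with iron in siTfe3/Tfeb cells and 1.58-fold higher in siGFP cells. The 2 other probes had iron differences of 0.20 and 0.05 in siTfe3/Tfeb cells, and of 0.67 and 0.49 in siGFP cells. All 3 probes thus gave the smaller iron difference in siTfe3/Tfeb cells, although the untreated arrays differed too, by 0.21 between siTfe3/Tfeb and siGFP cells. The difference of responses, -0.39, exceeded its spot SD of 0.0897 but was under 1.5-fold.

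Gabarap, a member of the other Atg8 subfamily that acts late in autophagosome formation, had levels of 5.56 in siTfe3/Tfeb cells with iron, 5.36 in siTfe3/Tfeb cells, 5.61 in siGFP cells with iron and 5.25 in siGFP cells. Its relative Gabarapl1 had levels of 5.004 in siTfe3/Tfeb cells with iron, 4.55 in siTfe3/Tfeb cells, 4.69 in siGFP cells with iron and 4.35 in siGFP cells. Gabarapl2 (GATE-16), which also serves Golgi transport, had 3.98 in siTfe3/Tfeb cells with iron, 3.86 in siTfe3/Tfeb cells, 4.10 in siGFP cells with iron and 3.96 in siGFP cells. All 3 were higher on the iron array in both siRNA groups, by between 1.09-fold (Gabarapl2 in siTfe3/Tfeb cells) and 1.37-fold (Gabarapl1 in siTfe3/Tfeb cells). Each of these differences, by the brightest probes, was larger than the spot SD of 0.0634 and below 1.5-fold. A second, also bright Gabarapl2 probe had smaller iron differences, 0.02 in siTfe3/Tfeb cells and 0.08 in siGFP cells, the first within that spot SD. A dim one had 0.64 in siTfe3/Tfeb cells and was not measured in siGFP cells. The second Gabarapl1 probe had 0.55 and 0.32. A second, dim Gabarap probe had 0.30 in siTfe3/Tfeb cells and -0.11 in siGFP cells. Map1lc3a, a dimmer LC3 gene with 1 probe, had levels of -1.56 in siTfe3/Tfeb cells with iron, -1.44 in siTfe3/Tfeb cells, -1.84 in siGFP cells with iron and -2.19 in siGFP cells. Its iron differences of -0.12 and 0.35 lay within the spot SD of 0.474. The group median was 0.20 for iron in siTfe3/Tfeb cells and 0.35 in siGFP cells.

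Outside these groups, the iron difference nearest in size to that of Sqstm1 was that of Tecpr1. It was close to it in siGFP cells and smaller in siTfe3/Tfeb cells. Tecpr1 is a lysosomal protein that binds Atg12-Atg5 and takes part in the fusion of autophagosomes with lysosomes. Its 1 probe, at chr5:144956314-144956373 (mm9, minus strand), had levels of 3.93 in siTfe3/Tfeb cells with iron, 3.13 in siTfe3/Tfeb cells, 3.61 in siGFP cells with iron and 2.51 in siGFP cells. Both iron arrays were above both untreated arrays, and within each iron state the siTfe3/Tfeb array was the higher. Iron differences were 1.74-fold in siTfe3/Tfeb cells and 2.14-fold in siGFP cells, and siTfe3/Tfeb differences were 1.25-fold with iron and 1.54-fold without iron. The responses to iron differed by -0.30, against a spot SD of 0.0897, and no further probe was there to check it. The other fusion genes did not share the difference. Stx17, the autophagosomal SNARE, was lower with iron by 0.29 in siTfe3/Tfeb cells and 0.22 in siGFP cells, and the tether gene Epg5 had -0.09 and 0.25.

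With iron in siTfe3/Tfeb cells, Sqstm1 and Tecpr1 were at least 1.5-fold higher and Calcoco1 at least 1.5-fold lower, 3 of 39 measured members, while 7.96% of all genes measured differed that much (4.58% higher and 3.38% lower). With iron in siGFP cells, Sqstm1, Tecpr1 and Map1lc3b were 1.5-fold higher and no member was 1.5-fold lower, again 3 of 39, against 6.06% of all genes (4.20% higher and 1.86% lower). At 2-fold, Sqstm1 alone was higher in siTfe3/Tfeb cells, where 1.61% of all genes were. Sqstm1 and Tecpr1 were so in siGFP cells, against 1.40% of all genes. Of all genes measured, 98.65% had an iron difference no higher than that of Sqstm1 in siTfe3/Tfeb cells and 99.01% in siGFP cells, and for Tecpr1 the percentages were 97.44 and 98.93. The count of members called was therefore close to that of genes in general, and the members called were these few.

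**Figure D2:**
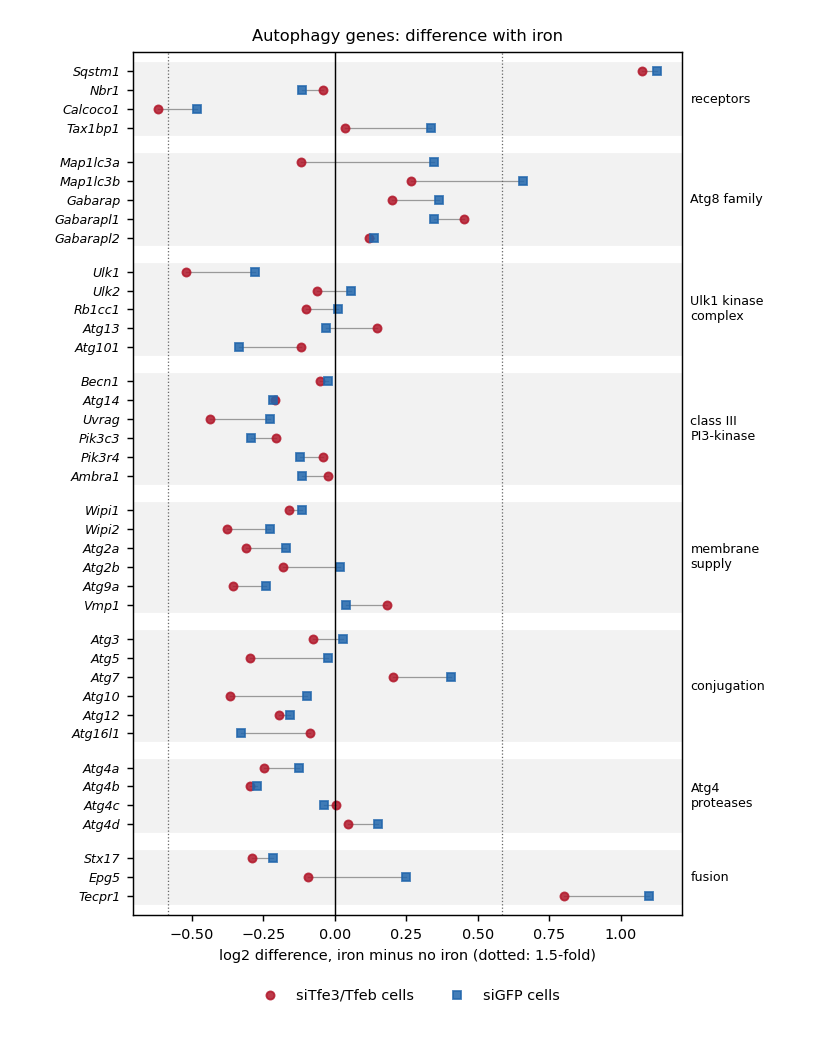
Log2 difference with iron (x axis) of each of the 39 measured members (y axis, by role) in siTfe3/Tfeb cells (red circles) and siGFP cells (blue squares), 1 array minus 1 array each, with 1.5-fold dotted. Sqstm1 and Tecpr1 stand to the right at 0.80 to 1.13, the Atg8 genes except Map1lc3a are to the right of 0 in both, and the class III PI3-kinase genes are all to the left.

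Most of the machinery was slightly lower with iron, although the count from 0 depended on the scaling. With median centring, which moved the median of all genes by 0.103, 21 of 39 members lay above 0 in siTfe3/Tfeb cells. Counted there from the median of all genes, 12 of 39 members lay above it, with and without median centring. By their brightest probes, 21 of the 39 members were lower on the iron array in both siRNA groups (53.8%, against 38.6% of all genes) and 10 were higher in both (25.6%, against 33.5%). Every measured probe had that sign for 17 of the 21 and for 7 of the 10. The 6 genes of the class III PI3-kinase were all lower in both by their brightest probes, with medians of -0.13 in siTfe3/Tfeb cells and -0.17 in siGFP cells. Within it the catalytic subunit Pik3c3 (Vps34) had iron differences of -0.21 in siTfe3/Tfeb cells and -0.29 in siGFP cells. Atg14, which directs the kinase to the autophagosome, had -0.21 and -0.22, and Uvrag, its counterpart in the endosomal complex, had -0.44 and -0.23. The scaffold Becn1 had the flattest profile of all 39 members, with 4 levels spanning 0.087, from 0.55 in siTfe3/Tfeb cells with iron to 0.63 in siGFP cells without iron. Pik3r4 (Vps15) and Ambra1, a regulator of Becn1, had iron differences between -0.12 and -0.03, near the spot SD of about 0.1. Dimmer probes of 3 of the 6 had the opposite sign in a comparison. A Pik3r4 probe had 0.22 in siTfe3/Tfeb cells, an Ambra1 probe had 0.61 in siGFP cells, and 2 Uvrag probes had 0.12 and 1.08 in siGFP cells, the last of them also 0.20 in siTfe3/Tfeb cells. For these genes the direction with iron depends on the probe.

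In the Ulk1 complex, which starts autophagosome formation, Ulk1 had levels of 2.08 in siTfe3/Tfeb cells with iron, 2.60 in siTfe3/Tfeb cells, 1.48 in siGFP cells with iron and 1.76 in siGFP cells. Both siTfe3/Tfeb arrays were above both siGFP arrays, and within each siRNA group the iron array was the lower. That iron difference was 1.44-fold for siTfe3/Tfeb and 1.21-fold for siGFP. Its siTfe3/Tfeb difference was 1.52-fold with iron and 1.80-fold without iron. The probe lies at chr5:111213514-111213573 (mm9, minus strand), and a second, dimmer probe was well above background on the 2 untreated arrays only, where it gave 0.48. By their brightest probes, the paralogue Ulk2 and the scaffold Rb1cc1 (FIP200) had iron differences between -0.10 and 0.06. Dimmer Rb1cc1 probes had iron differences from -0.33 to 0.41 in siGFP cells, so the iron value of Rb1cc1 depends on the probe. Ulk2 and Rb1cc1 had siTfe3/Tfeb differences of 0.15 and 0.28 with iron, and 0.27 and 0.40 without iron. The regulatory subunit Atg13 had 0.49 with iron and 0.31 without iron, and Atg101, which stabilises Atg13, had 0.06 and -0.16.

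Among genes of membrane supply, the PI3P-binding Wipi1 gave the largest siTfe3/Tfeb difference of all members. Its levels were 1.16 in siTfe3/Tfeb cells with iron, 1.32 in siTfe3/Tfeb cells, -0.003 in siGFP cells with iron and 0.11 in siGFP cells. The siTfe3/Tfeb arrays were thus 2.23-fold higher with iron and 2.30-fold higher without iron, and the iron differences, -0.16 and -0.12, were small beside that. The 2 other Wipi1 probes, both dim, gave 0.84 and 0.42 with iron and 0.66 and 0.88 without iron, the same direction in each case. The brightest lies at chr11:109434884-109434943 (mm9, minus strand). Its relative Wipi2, which recruits Atg16l1, the lipid transfer genes Atg2a and Atg2b and the lipid scramblase Atg9a were read by their brightest probes. They had siTfe3/Tfeb differences between 0.13 and 0.42, all higher, and all were lower with iron in siTfe3/Tfeb cells. The other Wipi2 probes had siTfe3/Tfeb differences of 0.34 and 0.51 with iron, and 0.67 and 0.51 without. A dimmer Atg2b probe had 0.37 with iron and 0.87 without. Another had 0.58 with iron, and its iron difference in siTfe3/Tfeb cells was 0.42. For Wipi2 and Atg2b the size thus depends on the probe, and for Atg2b the iron direction does too. Vmp1, a scramblase of the endoplasmic reticulum, had the opposite sign, -0.26 with iron and -0.41 without iron.

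Of the conjugation genes, Atg7, the E1-like enzyme that activates both Atg8 and Atg12, was the one higher with iron in both siRNA groups, at 1.15-fold in siTfe3/Tfeb cells and 1.32-fold in siGFP cells. Its second probe had the same iron direction, 0.23 and 0.32, but the opposite siTfe3/Tfeb direction, -0.26 with iron and -0.16 without iron against 0.26 and 0.46, so its direction depends on the probe. The E2-like Atg3 and Atg10, the ubiquitin-like Atg12, its partner Atg5 and the membrane-anchoring Atg16l1 had iron differences from -0.37 to 0.03 and siTfe3/Tfeb differences from -0.07 to 0.39. The cysteine proteases Atg4a to Atg4d, which process Atg8 proteins, had iron differences from -0.30 to 0.15. Atg4b, the main LC3 protease, had siTfe3/Tfeb differences of 1.32-fold with iron and 1.34-fold without iron by its brightest probe, while 2 dimmer probes had 0.10 and 0.08 on the log2 scale with iron and 0.07 and 0.15 without iron. Its dimmest probe gave this difference only without iron, at 0.90, so the size depends on the probe.

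With Tfe3/Tfeb siRNA, members were mostly higher rather than lower. By their brightest probes, 28 of the 39 were higher in siTfe3/Tfeb than in siGFP cells both with and without iron (71.8%, against 35.8% of all genes), and 4 were lower in both (10.3%, against 41.8%). The 4 were Becn1, Gabarapl2, Vmp1 and Atg4d. Every measured probe had that sign for 23 of the 28 (not for Ambra1, Atg16l1, Atg7, Nbr1 and Stx17) and for all 4 of the lower ones. Of these 4, Becn1 had -0.06 with iron and -0.04 without, within its spot SD of 0.101. Median centring raised all genes by 0.12 with iron, more than the size of the Becn1 value and about that of Gabarapl2, -0.12. The median over members was 0.22 with iron and 0.27 without iron, against -0.02 and -0.03 over all genes. For receptors it was 0.26 with iron and 0.31 without iron, and for the core machinery 0.21 and 0.27. The gap between the medians of receptors and core machinery was 0.05 with iron and 0.04 without iron, and no error was estimated for it. By their brightest probes, all 4 measured receptors were higher on the siTfe3/Tfeb arrays. For Nbr1 (0.28 with iron and 0.21 without) and Calcoco1 (0.24 and 0.38) these differences lay within the spot SD of 0.474. A second, dim Nbr1 probe had -0.11 with iron, and the second Calcoco1 probe had 1.23 with iron and 1.09 without.

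At 1.5-fold, Wipi1 and Ulk1 differed with iron, both higher in siTfe3/Tfeb cells, which is 2 of 39 members against 9.60% of all genes (3.97% higher and 5.62% lower). Without iron 6 of 39 did, against 13.8% of all genes (6.25% higher and 7.58% lower). These were Wipi1, Ulk1, Map1lc3a, Tax1bp1, Tecpr1 and Epg5, all higher in siTfe3/Tfeb cells. Epg5, at levels of -0.19 in siTfe3/Tfeb cells with iron, -0.10 in siTfe3/Tfeb cells, -0.45 in siGFP cells with iron and -0.70 in siGFP cells, was 1.197-fold higher with iron and 1.52-fold without. Map1lc3a was 1.22-fold higher with iron and 1.68-fold without, on 1 dim probe. At 2-fold Wipi1 alone was higher, against 0.853% of all genes with iron and 1.39% without. The share of members past 1.5-fold was thus below that of all genes with iron and close to it without iron, and all members past it were higher in siTfe3/Tfeb cells.

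**Figure D3:**
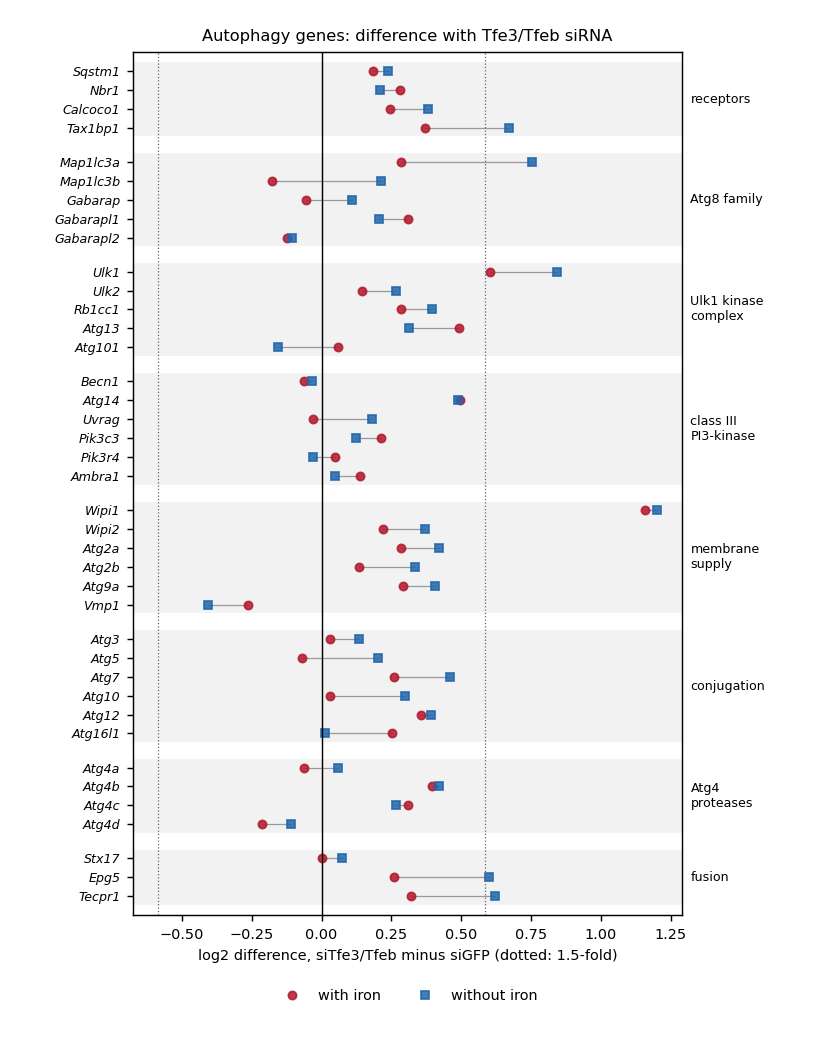
Log2 difference of siTfe3/Tfeb minus siGFP cells (x axis) of each of the 39 measured members (y axis, by role), with iron (red circles) and without iron (blue squares), 1 array minus 1 array each, with 1.5-fold dotted. Most points are to the right of 0, Wipi1 farthest at 1.159 and 1.202, and Vmp1 is to the left at -0.26 and -0.41.

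Seen by array, the highest of a member's 4 levels was on the array of siTfe3/Tfeb cells without iron for 24 of 39 members, where 30.3% of all genes had theirs. It was on the array of siTfe3/Tfeb cells with iron for 7 (18.4% of all genes). It was on that of siGFP cells with iron for 5 (26.2%) and of siGFP cells without iron for 3 (25.1%). The 4 levels spanned less than 1.5-fold for 23 members. They spanned 2-fold or more for 4 of 39 (Sqstm1, Tecpr1, Wipi1 and Ulk1), and for 8.69% of all genes. The median span was 0.44, near that of all genes, 0.41. Since each array enters 1 iron and 1 siTfe3/Tfeb comparison, the iron and siTfe3/Tfeb values of a member share arrays and are given side by side only.

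The responses to iron in the presence and absence of Tfe3/Tfeb siRNA rest on separate arrays. None of the 39 members differed 1.5-fold between the 2 responses, against 5.12% of all genes. The response was lower in siTfe3/Tfeb than in siGFP cells for 28 of 39 members, and for 6922 of 13859 genes. The median difference was -0.10 for members and 0.00 for all genes. With median centring, which moved all genes by 0.121, 23 members lay above 0. Counted from the median of all genes, 11 of 39 members lay above it, with and without median centring. For the 4 receptors the median difference of responses was -0.10, and for the core machinery it was -0.10. The largest were Map1lc3a (-0.47, within its spot SD of 0.67), Map1lc3b (-0.39) and Epg5 (-0.34). In the other direction they were Atg16l1 (0.24) and Atg101 (0.22).

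**Figure D4:**
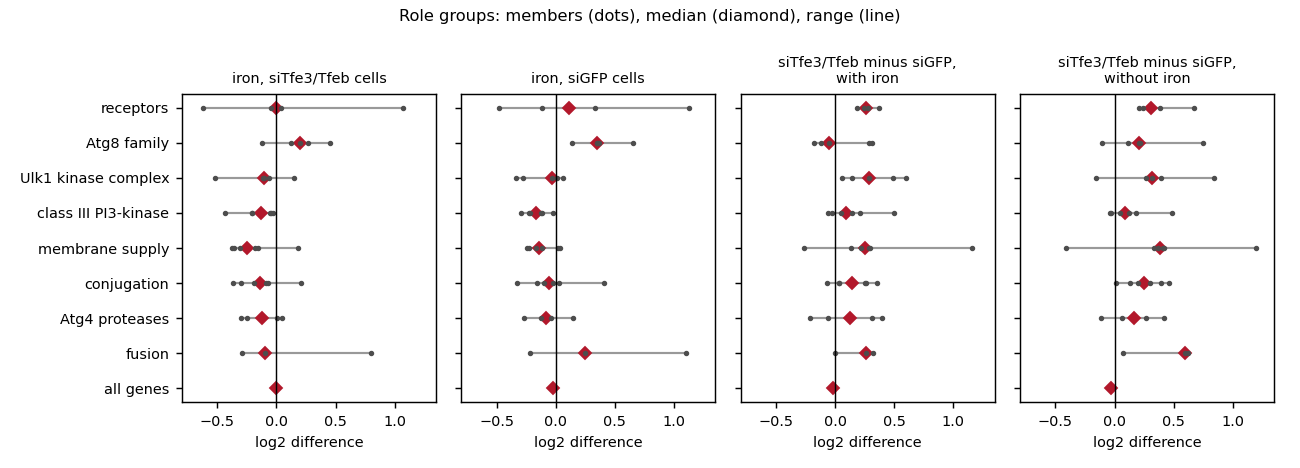
Log2 differences (x axes) in the 4 comparisons, by role group (y axis), with dots for members, a red diamond for the median, a line for the range, and the median of all genes in the bottom row. With iron the Atg8 family has the highest median in both siRNA groups, and for siTfe3/Tfeb against siGFP most medians are above that of all genes.

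Promoter windows from RefSeq (GRCm38.p6) were matched by symbol to 33 of the 40 members, here the 250 bases before each start. They were searched on both strands for CACGTG, the E-box core to which MiT/TFE factors are known to bind, for its longer form TCACGTGA (CLEAR-like, which contains CACGTG), and for TGACNNNGC, the core of the antioxidant response element. The 33 members had 39 windows. CACGTG stood in 3 of the 39 (7.69%), of Atg3, Atg5 and Atg7, and in 6.02% of all 32851 windows. TCACGTGA stood in 1 (2.56%), that of Atg3, and in 0.785% of all windows. TGACNNNGC stood in 6 (15.4%), of Atg13, Tax1bp1, Ulk2 and Vmp1, and in 10.2% of all windows. Atg3, with both E-box matches, had iron differences of -0.08 in siTfe3/Tfeb cells and 0.03 in siGFP cells and siTfe3/Tfeb differences of 0.03 with iron and 0.13 without iron. None of these letters stood in the windows of Sqstm1, Tecpr1 or Wipi1. The windows of Atg3 and of these 3 members with the largest differences are shown, with motif matches in capitals. They lie at chr16:45158579-45158828 (plus strand), chr11:50210821-50211070 (minus strand), chr5:144223616-144223865 (minus strand) and chr11:109611390-109611639 (minus strand) of GRCm38.p6.
Atg3: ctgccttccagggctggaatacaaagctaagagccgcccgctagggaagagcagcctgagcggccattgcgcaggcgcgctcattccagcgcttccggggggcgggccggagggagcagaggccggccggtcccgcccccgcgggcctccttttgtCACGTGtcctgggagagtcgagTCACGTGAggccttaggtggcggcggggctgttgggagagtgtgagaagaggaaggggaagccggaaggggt
Sqstm1: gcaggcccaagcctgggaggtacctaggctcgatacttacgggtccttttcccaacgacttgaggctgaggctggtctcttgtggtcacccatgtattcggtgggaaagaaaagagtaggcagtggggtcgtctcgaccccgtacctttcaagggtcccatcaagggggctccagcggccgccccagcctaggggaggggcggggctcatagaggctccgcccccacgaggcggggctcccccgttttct
Tecpr1: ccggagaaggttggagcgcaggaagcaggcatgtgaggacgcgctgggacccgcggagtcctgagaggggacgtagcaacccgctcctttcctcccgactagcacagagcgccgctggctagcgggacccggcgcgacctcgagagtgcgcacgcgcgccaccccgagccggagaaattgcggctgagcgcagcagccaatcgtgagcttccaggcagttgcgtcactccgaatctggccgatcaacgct
Wipi1: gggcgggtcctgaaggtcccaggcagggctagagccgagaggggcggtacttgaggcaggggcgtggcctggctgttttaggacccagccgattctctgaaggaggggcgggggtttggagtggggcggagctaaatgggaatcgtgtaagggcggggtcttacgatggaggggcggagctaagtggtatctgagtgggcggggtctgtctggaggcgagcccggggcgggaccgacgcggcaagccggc

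A list of 44 further autophagy genes (other cargo receptors, regulators, membrane and fusion factors) was all well above background on the 4 arrays. With iron, 0 of 44 differed 1.5-fold in siTfe3/Tfeb cells, against 7.96% of all genes. In siGFP cells 3 of 44 did, against 6.06% of all genes, all higher with iron: the fusion SNARE Snap29 (0.61), the lysosomal tether adaptor Plekhm1 (0.65) and Trp53inp2 (0.67), which binds Atg8 proteins. In siTfe3/Tfeb cells these had 0.38, 0.58 and 0.49. Between siTfe3/Tfeb and siGFP cells, 5 differed with iron, against 9.60% of all genes (3.97% higher), and 5 without iron, against 13.8% (6.25% higher), all higher in siTfe3/Tfeb cells. The mitophagy receptors Bnip3 and Bnip3l had siTfe3/Tfeb differences of 1.23 and 0.79 with iron, and of 0.95 and 0.69 without iron. The stress-response genes Trp53inp1 and Ddit4, an mTORC1 inhibitor, had 1.197 and 1.058 with iron and 0.92 and 1.03 without iron. The glycogen-binding Stbd1, a dim gene, had 0.92 with iron and 0.54 without, and the Wipi relative Wdr45 had 0.39 and 0.62. Medians of the list were 0.03 for iron in both siRNA groups, and 0.11 and 0.16 for siTfe3/Tfeb against siGFP with and without iron. Ncoa4, the receptor that brings ferritin to autophagosomes, had levels of 3.08 in siTfe3/Tfeb cells with iron, 2.73 in siTfe3/Tfeb cells, 2.75 in siGFP cells with iron and 2.35 in siGFP cells. Its iron differences were 0.35 and 0.40 in siTfe3/Tfeb and siGFP cells, below 1.5-fold. Ncoa4 was singled out for its role in iron handling after its values were seen.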

How the data were processed

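Expression was measured in RAW264 cells on 4 Agilent SurePrint G3 mouse arrays, 1 per group. The submitters' processing notes name Agilent Feature Extraction 12.0.3.1. Each deposited file holds a processed intensity per spot, background-subtracted and not scaled between arrays per the file headers. Log2 values centred per probe stand in the deposited series matrix. Its differences between arrays matched those of the scanner values with a slope of 1, and its column medians were 0.0013, -0.087, 0.0223 and -0.0042 for siTfe3/Tfeb with iron, siTfe3/Tfeb, siGFP with iron and siGFP.

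Outlier spots were left out, spots of a probe averaged, log2 taken and the 75th percentile of the array subtracted. Of 56605 probes, 42760 were named by the file's symbol, 310 through an older symbol and 870 through an accession in the RefSeq gene table (GRCm38.p6), and 12662 named no gene. The brightest probe by its mean over the arrays stood for a gene; 28 members had more than 1 probe. Probe coordinates are those of the files (mm9); probe positions within exons or UTRs were not analysed here. A gene was measured in a comparison if well above background on its arrays, and a difference of at least 1.5-fold, or 2-fold, was counted. No model was fitted. All 40 members are named, with values per array for receptors, Atg8 genes and members that differed 1.5-fold. Tfe3, Tfeb, Mitf and Tfec are named as the check of the siRNA, and of 44 other autophagy genes up to 10 that differed 1.5-fold in a comparison. 1 cell type marker is not reported here. Members, roles and lists were chosen with earlier results of these data known. The spread of repeated spots is the only error, and 1 array per group limits the precision. The steps from levels to counts of called genes were tested on simulated data. Alternatives were other scalings, normexp (limma 3.58.1, R 4.3.3), the mean over probes, other background filters and the series matrix. Work was done in Python 3.11.15 with pandas 2.3.3 and numpy 2.4.6.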

Additional observations from a re-analysis of the deposited data

Results flagged for a closer look

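Several members had differences of opposite sign in the 2 siRNA groups or the 2 iron states. None of these differences of responses was tested, since each rests on 4 arrays, and none reached 1.5-fold.

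For iron, siTfe3/Tfeb minus siGFP, the difference of responses was -0.466 for Map1lc3a (spot SD 0.67), -0.341 for Epg5, -0.201 for Atg2b, -0.121 for Ulk2, -0.112 for Rb1cc1, -0.102 for Atg3, 0.177 for Atg13 and 0.0438 for Atg4c. The spot SD of a difference of responses was 0.143 at the level of Epg5, Atg2b, Ulk2, Rb1cc1 and Atg4c, 0.133 at that of Atg3 and 0.0897 at that of Atg13, so those of Epg5, Atg2b and Atg13 exceeded it. The mitophagy receptor Bnip3 had 0.28. Medians of the difference of responses were -0.0954 for receptors and -0.298 for the 3 fusion genes, whose median iron differences had opposite signs in the siRNA groups. Median centring raised all genes by 0.121 in the difference of responses, so which members exceeded the spot SD depends on the scaling. It raised them by 0.103 for iron in siTfe3/Tfeb cells. The values there of Epg5 (-0.09), Ulk2 (-0.06) and Atg3 (-0.08) were smaller in size, so their opposite signs depend on it too.

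For siTfe3/Tfeb minus siGFP, with iron minus without iron, the values were -0.391 for Map1lc3b, -0.273 for Atg5, -0.211 for Uvrag, -0.164 for Gabarap, -0.123 for Atg4a, 0.0799 for Pik3r4 and 0.216 for Atg101. Those of Map1lc3b, Uvrag and Gabarap exceeded the spot SD of 0.0897, and those of Atg5 and Atg101 exceeded 0.133, while Pik3r4 and Atg4a did not exceed 0.143. Outside the 40, Snap29 had -0.23 and Plekhm1 -0.0655. The median for the Atg8 family was -0.164. Median centring raised the difference of responses by 0.121, more than the spot SD of 0.0897. It raised all genes by 0.12 for siTfe3/Tfeb against siGFP with iron. The values there of Gabarap (-0.05), Uvrag (-0.03), Atg5 (-0.07) and Atg4a (-0.06) were smaller in size, so their opposite signs depend on the scaling.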

How the results depend on the processing

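Under 9 other ways of processing and a second probe for Calcoco1, 1685 of 1755 values of the members kept their sign. These totals include settings that could not change a sign. The other background filters change only which genes enter, so their 195 and 190 values, with 14 and 13 past 1.5-fold, stayed the same by construction. The series matrix held the scanner differences up to a shift. Of the 126 values of members that differed 1.5-fold in a comparison, all kept their sign and 113 stayed at least 1.5-fold. Those of Sqstm1, Tecpr1, Map1lc3b (iron in siGFP cells) and Wipi1 did so throughout. Calcoco1 with iron in siTfe3/Tfeb cells (-0.62 to -0.24), Ulk1 with iron in siTfe3/Tfeb against siGFP cells (0.57 to 0.72), and Epg5 (0.52 to 0.90), Map1lc3a (0.50 to 0.75) and Tax1bp1 (0.33 to 0.69) without iron were each below it under at least 1 of them.

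Median centring moved the median of all genes by 0.103 for iron in siTfe3/Tfeb cells, 0.12 for siTfe3/Tfeb against siGFP with iron and 0.121 for the difference of responses. With it, counted from 0, there were 21 members above 0 (12 otherwise) for iron in siTfe3/Tfeb cells. The medians there were 0.099 for receptors and 0.00057 for core machinery. For the difference of responses there were 23 above 0 (11 otherwise). Counted from the median of all genes, the numbers were 12 and 11 of 39, with and without median centring. For siTfe3/Tfeb against siGFP with iron, median centring gave medians of 0.38 and 0.33 and 4 members past 1.5-fold, and normexp gave 1. The mean over all probes gave 5 members past 1.5-fold, a receptor median of -0.19 and a receptor-minus-core gap of -0.076 for iron in siTfe3/Tfeb cells, a receptor median of 0.44 for siTfe3/Tfeb against siGFP without iron and 2 members past 1.5-fold in the difference of responses.

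The receptor median for iron in siGFP cells, 0.11 with a gap to the core machinery of 0.15, depended on which of the few receptors entered. It was 0.0058 (gap 0.044) with Optn and no background filter, 0.34 (gap 0.37) with levels above -2 only, and -0.11 (gap -0.076) without Sqstm1. With the other Calcoco1 probe the receptor median for siTfe3/Tfeb against siGFP without iron was 0.455 (gap 0.19). The last 2 settings, and counts over every measured probe, were added after seeing the data. Causes were not tested beyond which probes and members each setting holds. No paired analysis was possible because the groups share replicate number 1 only, and with 1 array per group no replicate could be left out. A fit of siRNA and iron as additive effects over the 4 arrays was not run. Depth of arrays limits dim genes most: Nbr1, Calcoco1, Map1lc3a and Atg9a had mean levels between -3 and -1, where the spot SD was largest. Optn gave no value.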
